A study of Mus musculus with 12 samples.

Results

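RNA levels of most chromosome 11 genes were lower in a mouse embryonic stem cell clone with the C48S change in Oct4 than in wild-type cells, and these genes are described here one by one and in groups. Members were chosen by 3 criteria: protein-coding biotype, chromosome 11 in the deposited annotation, and a mean of at least 20 CPM (read counts relative to library totals adjusted by TMM scaling) over all 12 libraries. The rule took 702 of the 1634 protein-coding genes counted on chromosome 11, out of 55416 genes counted in all. All 702 passed the low-count filter of the model, which left 17940 genes to test. The rule used the mean level over all libraries and not the C48S to WT ratio, but the chromosome itself was selected on a shift seen in these data, so its median ratio is given as a description with no test.

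The libraries come from total RNA of the Bl/6J embryonic stem cell line, depleted of ribosomal RNA. Wild type (WT) cells are the parental line per the treatment protocol, and the mutant cells carry Oct4 C48S, a cysteine to serine replacement in the pluripotency factor encoded by Pou5f1, and stem from 1 clone, number 46. Undifferentiated cells were grown with the MEK inhibitor PD (1 µM), the GSK3 inhibitor CHIR (3 µM) and ascorbic acid. Differentiating cells were without leukaemia inhibitory factor (LIF) and with retinoic acid (RA, 1.5 mg/L) for 2 days, and whether the inhibitors stayed in that medium is not stated. Each line was thus sequenced in both states, in 4 groups of 3 libraries. The treatment field of the RA libraries runs from day 2 to day 7, against day 2 in each title, which was used here. The mutation and any other feature of the clone cannot be told apart. Copy number was not measured in these files.

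When the number of copies of a chromosome changes, the RNA of most of its genes is known to scale with the number of gene copies, while some genes hold their level through feedback on transcription or on RNA stability, which is called buffering or dosage compensation. Protein complexes such as the ribosome and the proteasome are the usual example of dosage-sensitive machinery. An unpaired subunit is degraded as protein, which RNA levels do not show. Mouse embryonic stem cell lines are known for gains and losses of whole chromosomes in culture. Mouse chromosome 11 carries the Hoxb cluster, the tumour suppressor gene Trp53, the LIF pathway factor Stat3 and the retinoic acid receptor gene Rara. For scale, a ratio of 2 to 3 is 0.667.

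Total counts lay between 8678088 and 13597098 per library. Replicate 3 of the undifferentiated C48S cells stood apart from the other 2 (chi-square over genes divided by its degrees of freedom 9.33 and 9.03), where every other pair of one group gave at most 2.20, so values that change most without it are also given so. The labels do not say whether libraries of a group are separate cultures, and the spread that each p-value is set against may therefore be technical. The 6 stem cell markers summed to 3008 to 3090 CPM in WT and 3364 to 3475 CPM in C48S before RA, with Klf4 and Esrrb higher and Nanog and Sox2 lower in C48S, and after RA to 92.7 to 102 CPM in WT and 498 to 539 CPM in C48S. The 10 fibroblast or feeder cell markers summed to 354 to 388 CPM in WT and 500 to 656 CPM in C48S before RA, and to 286 to 290 CPM and 438 to 443 CPM after it. In bulk RNA, fewer cells of a type and less RNA per cell cannot be told apart. Strand use and the handling of reads with several matches are not given in the sources used here, so genes with near-identical copies, such as Npm1 and the ribosomal protein genes, and genes that overlap others carry that uncertainty.

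Most chromosome 11 genes were lower in C48S than in WT, in both states and in each library. Members took 12.5, 12.6 and 12.5% of all counts in the WT undifferentiated libraries and 8.64, 8.58 and 8.65% in those of C48S. After RA they took 11.1, 11.1 and 11.1% in WT and 7.87, 7.88 and 7.83% in C48S, so the shares of the lines did not overlap in either state. The median log2 ratio of C48S to WT over the 702 members was -0.54 before RA, a ratio of 0.686, and -0.48 after it, a ratio of 0.716. Taken library by library against the WT mean, the C48S medians were -0.55, -0.55 and -0.52 before RA and -0.49, -0.46 and -0.49 after it, while the WT libraries stayed within 0.021 of 0.

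The shift was a displacement of the whole distribution with little change in its width. Before RA the members from the 25th to the 75th percentile lay between ratios of 0.576 and 0.827, and after RA between 0.627 and 0.842. The 5th and 95th percentiles of the log2 ratio were -1.30 and 0.37 before RA, and -1.06 and 0.14 after it. Ratios were below 1 for 619 members (88.2%) before RA and for 637 (90.7%) after it. The 6420 genes that met the same level rule outside chromosomes 6, 8, 11 and Y had medians of -0.012 and 0.061, so relative to them the members stood at 0.692 before RA and 0.686 after it. The interquartile range of the members was 0.52 before and 0.43 after RA, and that of those other genes was 0.51 and 0.44.

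**Figure D1:**
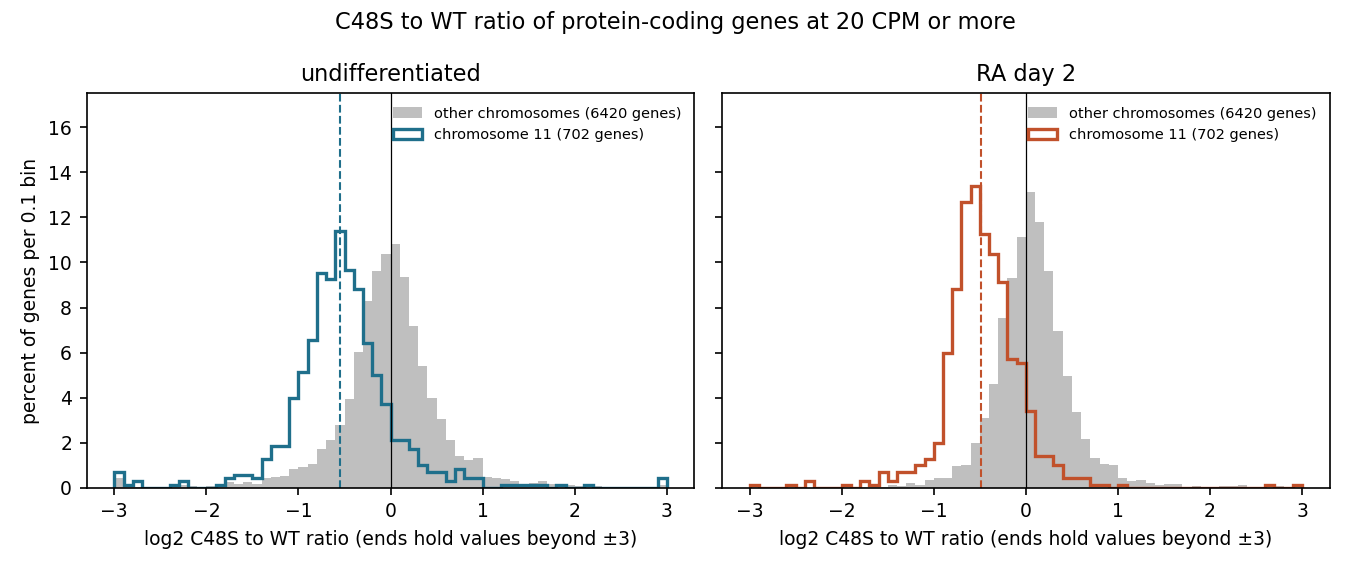
Percent of genes (vertical axis) in each 0.1-wide bin of the log2 C48S to WT ratio (horizontal axis), for 702 members (coloured outline, dashed line at their median) and 6420 genes of other chromosomes under the same level rule (grey), undifferentiated on the left and RA day 2 on the right. The coloured outline has the shape of the grey one, moved to medians of -0.54 and -0.48.

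Among the 17 chromosomes other than 6, 8, 11 and Y, medians ran from -0.15 to 0.037 before RA and from -0.089 to 0.15 after it, so that of chromosome 11 lay below them all in both states. Chromosomes 6 and 8 were displaced the other way, with medians of 0.58 and 0.51 before RA and 0.66 and 0.59 after it. The 527 tested protein-coding genes of chromosome 11 under 20 CPM had medians of -0.48 and -0.49. The 166 tested chromosome 11 genes of other biotypes had medians of -0.50 and -0.60, against -0.022 and -0.18 for 2574 such genes elsewhere.

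By the test of C48S against WT (edgeR quasi-likelihood, Benjamini-Hochberg adjusted p under 0.05 over 17940 genes), 565 members (80.5%) were lower and 53 (7.55%) higher before RA, against 28.1% and 27.5% of all genes tested. After RA 569 members (81.1%) were lower and 35 (4.99%) higher, against 25.7% and 28.8% of all genes tested. In both states 481 members (68.5%) were lower and 10 (1.42%) higher, where 13.5% and 15.3% of all genes tested were. Without replicate 3 of the undifferentiated C48S cells, 501 were lower and 10 higher in both states. Every C48S library lay below every WT library for 562 members (80.1%) before RA, against 29.6% of all genes, and for 583 (83.0%) after RA, against 29.6% of all genes. The reverse held for 54 members (7.69%) before RA and 39 (5.56%) after it, against 28.7% and 32.9% of all genes. Since the chromosome was selected for this contrast, nothing is read from these shares.

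The displacement ran along the whole chromosome. In 13 windows of 10 Mb (GRCm39) the median log2 ratio lay between -0.68 and -0.40 before RA and between -0.62 and -0.40 after it. The window from 20 to 30 Mb had the lowest median before RA, with 29 of 29 members below 0, and the window from 110 to 120 Mb the highest, with 56 of 72 below 0. The 10 to 20 Mb window, which had the lowest median after RA, held 12 members and the 30 to 40 Mb window 16, so their values rest on few genes. Ratios of adjacent members were weakly alike (Pearson correlation across 701 neighbour pairs 0.088 before and 0.13 after RA, genes of 1 chromosome that share all libraries).

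**Figure D2:**
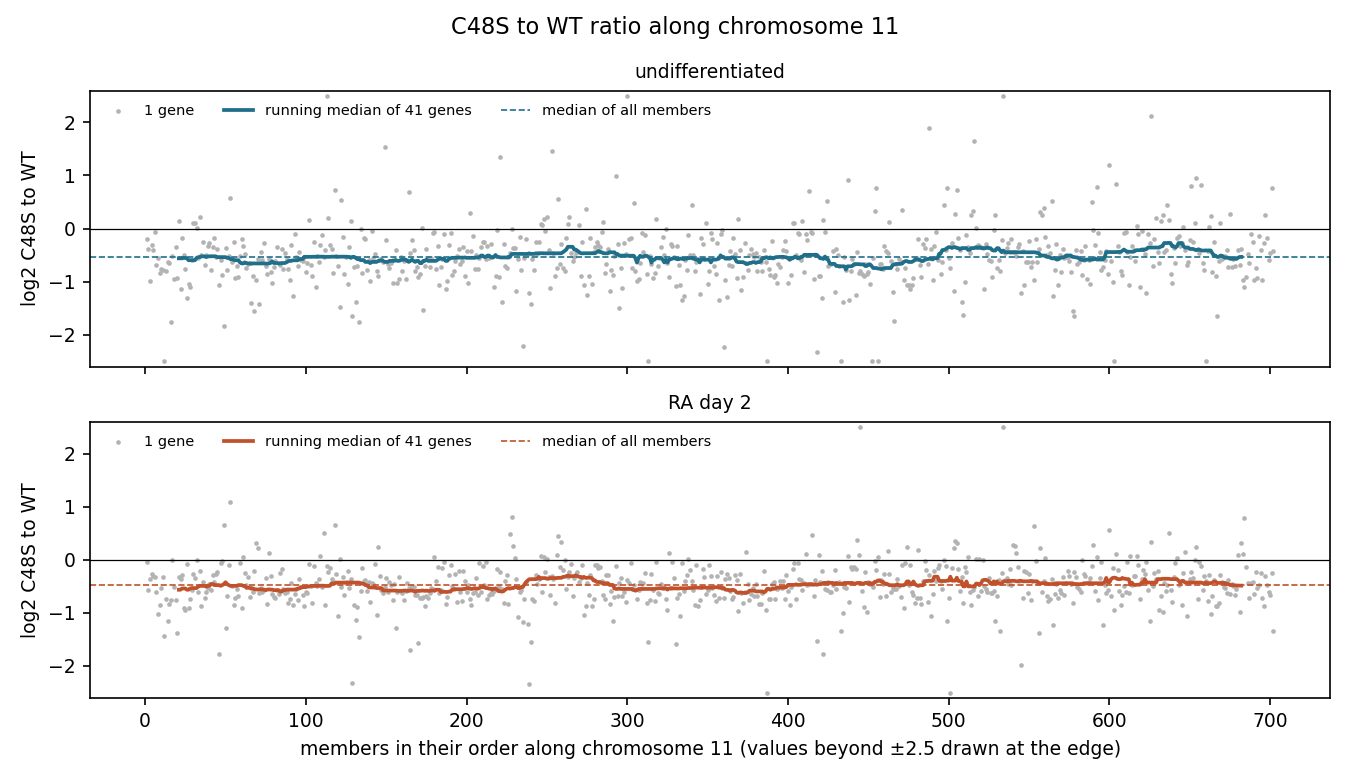
Log2 C48S to WT ratio (vertical axis) of each member (grey points) in its order along chromosome 11 (horizontal axis), undifferentiated above and RA day 2 below, with a running median of 41 genes (solid) and the median of all members (dashed). The running median stays below 0 wherever it is drawn, in both states. It needs 41 genes, so it is not drawn over the outermost members, and shorter blocks of genes near 0 may not show in it.

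Levels were related to the ratio differently in the 2 states. With the members split by mean level into 3 sets of 234 genes, the median log2 ratio before RA was -0.45 in the low set (20 to 53 CPM), -0.53 in the middle set and -0.60 in the high set (121 to 1994 CPM). After RA the order was the reverse, at -0.54, -0.50 and -0.44. Near the level threshold, Tmem101 (20.02 CPM), Zfp830 (20.13 CPM) and Rab34 (20.15 CPM) lay just inside and Ubtd2 (19.89 CPM), Tnk1 (19.96 CPM) and Gas7 (19.96 CPM) just outside. Their log2 ratios before RA were -0.46, -0.41 and -1.23 inside, and -1.02, 1.30 and -2.08 outside.

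Members were then sorted by how closely they kept to the median ratio of the chromosome. A member was said to follow the constant ratio when its log2 ratio lay within 0.5 to 1.5 times the members' median, which is a ratio of 0.568 to 0.828 before RA and 0.606 to 0.846 after it. Below that band it was called deeper, within 0.5 times the median's size on either side of 0 near equal, and above that higher. Before RA 365 members (52.0%) followed the constant ratio, 163 (23.2%) were deeper, 132 (18.8%) near equal and 42 (5.98%) higher. After RA 389 (55.4%) followed the constant ratio, 143 (20.4%) were deeper, 144 (20.5%) near equal and 26 (3.70%) higher.

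The same bands laid around the median of the other chromosomes held almost the same shares of their genes. Among the 6420 genes elsewhere 52.4, 23.7, 18.3 and 5.61% fell in the corresponding bands before RA, and 53.6, 23.1, 18.4 and 4.86% after it. Near-equal genes of chromosome 11 were thus about as frequent as genes that lay as far above the median elsewhere. The 95% interval of the ratio lay wholly within its band for fewer members: before RA for 182 constant, 103 deeper, 50 near-equal and 32 higher ones, and after RA for 180, 66, 61 and 14.

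Each gene was also tested against the median of its own chromosome, which asks whether it departs from the shared ratio. Before RA 463 members (66.0%) departed, 230 of them lower and 233 higher, where 52.2% of all genes tested did, 26.3% lower and 25.8% higher. After RA 410 members (58.4%) departed, 192 lower and 218 higher, where 49.8% of all genes tested did, 28.0% lower and 21.8% higher. Among the genes elsewhere that met the same level rule, 64.6% departed before and 58.2% after RA. By chromosome, the other 17 ran from 59.9 to 69.4% and from 52.4 to 62.5%, and the members lay inside both ranges. Without replicate 3 of the undifferentiated C48S cells 496 and 484 members departed.

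In the constant band in both states were 221 members (31.5%), and 32.4% of the genes elsewhere kept to the same band around their own median in both. Of the 221, 62 had both 95% intervals inside it, and the 8 most abundant of these were Npm1, Kpnb1, Ywhae, Eif5a, Vdac1, G3bp1, P4hb and Aff4. Npm1 (chr11:33102287-33113206), the nucleolar chaperone nucleophosmin, was at 3452, 3647 and 3469.7 CPM in WT and 2112, 2144 and 2483 CPM in C48S before RA. After RA it stood at 1340.0, 1378 and 1292 CPM in WT and 865, 905 and 839.7 CPM in C48S. RA lowered the gene in both lines, and the ratio of the lines was nearly the same before it (-0.65 ± 0.050, SE) and after it (-0.62 ± 0.051; interaction 0.03, adjusted p = 0.782, edgeR).

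Kpnb1 (chr11:97050540-97078707), the importin subunit that carries cargo into the nucleus, was at 1987, 2042 and 1980.1 CPM in WT and 1267, 1254 and 1285 CPM in C48S before RA and at 1021, 1026 and 985 CPM in WT and 677, 704 and 689.7 CPM in C48S after it. Its log2 ratios were -0.66 ± 0.041 and -0.55 ± 0.042. Ywhae, a phosphoserine-binding adaptor protein, was at 1382, 1426 and 1383 CPM in WT and 936, 960.2 and 1056 CPM in C48S before RA, with log2 ratios of -0.51 ± 0.046 and, after RA, -0.52 ± 0.046. No WT library of either gene overlapped a C48S library in either state. The translation factor gene Eif5a stood at -0.54 and -0.34, the mitochondrial channel gene Vdac1 at -0.57 and -0.45, and the stress granule gene G3bp1 at -0.72 and -0.62. P4hb, a disulfide isomerase of the endoplasmic reticulum, stood at -0.73 and -0.46, and Aff4, a scaffold of the super elongation complex, at -0.54 and -0.58.

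Near-equal members lie close to the level of WT by the definition of their band. The near-equal band held 38 members (5.41%) in both states, and 9 of these had both intervals inside it. Of the genes elsewhere, 5.28% lay as far above their own median in both states. The 8 most abundant of the 9 were Srsf1, Kansl1, Myo18a, Usp36, Atp6v0a1, Ska2, Aebp1 and Mif4gd. Srsf1 (chr11:87938199-87944581), a splicing factor known to limit its own expression through splicing and translation of its transcript, was at 642, 616 and 599.6 CPM in WT and 546, 559 and 628 CPM in C48S before RA. After RA it stood at 333, 315 and 337 CPM in WT and 359, 363 and 339.8 CPM in C48S, where each C48S library lay slightly above each WT library, while the lines overlapped before RA. Neither difference passed the line test (adjusted p = 0.0876 and 0.0737, edgeR). The overlap before RA rests on replicate 3 of the C48S cells, without which the log2 ratio there was -0.16 and passed the test (adjusted p = 5.83e-05, edgeR). Srsf1 stood above the chromosome median by 0.44 before RA and 0.59 after it. That departure was largely set by choosing genes whose intervals lay near 0.

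Atp6v0a1, a membrane subunit of the proton pump of lysosomes, was at 60.2, 62.7 and 60.8 CPM in WT and 59.1, 61.4 and 64.0 CPM in C48S before RA and at 83.2, 80.8 and 77.8 CPM in WT and 83.5, 79.4 and 81.7 CPM in C48S after it. Its log2 ratios were 0.00 ± 0.062 and 0.02 ± 0.058, and the RA rise was of like size in both lines (0.39 in WT and 0.41 in C48S). Ratios before and after RA were -0.16 and 0.03 for Kansl1, of a histone acetyltransferase complex (-0.07 before RA without replicate 3 of C48S), and -0.12 and 0.01 for the unconventional myosin Myo18a. For the nucleolar deubiquitinase gene Usp36 they were 0.10 and -0.00, and for the kinetochore gene Ska2 0.11 and -0.06. All 8 departed upward from the chromosome median in both states, which choosing genes with intervals near 0 had largely fixed in advance. Departures in the same direction in both states were found for 106 members upward (15.1%) and 98 downward (14.0%), against 10.5% and 12.5% of all genes tested and 14.1% and 15.1% of the genes elsewhere under the same level rule. Opposite departures in the 2 states were found for 78 members (11.1%), against 7.31% of all genes tested and 11.1% of those genes elsewhere.

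The level rule shaped which members could differ most. A mean of 20 CPM was reached in all 4 groups by 569 members and in only 1 group by 10, while 24 members were under it in both C48S groups and 2 in both WT groups. A member that met the rule only through the line where it is high had to differ, so its ratio is a description with no test.

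The 10 members that were higher in C48S in both states were Etv4, Ebf1, Cobl, Cdc42ep4, Atp1b2, Itgb4, Fkbp10, Jup, Timp2 and Nsf. Etv4 (chr11:101660568-101676197), an ETS family transcription factor and known target of ERK signalling, was at 3.99, 4.95 and 5.10 CPM in WT and 101, 92.9 and 94.8 CPM in C48S before RA. After RA it stood at 8.91, 11.1 and 11.1 CPM in WT and 93.1, 85.0 and 88.8 CPM in C48S. Etv4 met the level rule only through its C48S libraries, and its log2 ratios were 4.36 ± 0.10 and 3.09 ± 0.087.

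Ebf1 (chr11:44508144-44898918), a transcription factor of B cell and mesenchymal development, was at 21.9, 25 and 22.1 CPM in WT and 41.1, 39.6 and 33.8 CPM in C48S before RA and at 17.2, 15.2 and 14.8 CPM in WT and 25.1, 23.6 and 25.8 CPM in C48S after it. The ratio was alike in the 2 states (0.73 ± 0.093 and 0.66 ± 0.10). Cobl, an actin nucleator, was at 360.0, 372 and 366 CPM in WT and 559.7, 573 and 494 CPM in C48S before RA and at 39.8, 40.7 and 32.8 CPM in WT and 80.1, 74.6 and 87.2 CPM in C48S after it, so a gene that fell with RA in both lines was higher in C48S each time (0.57 ± 0.060 and 1.09 ± 0.075). The set also held Cdc42ep4, an effector of Cdc42 (1.20 and 0.55), the sodium pump subunit Atp1b2 (0.55 and 0.45) and Nsf, the ATPase that takes SNARE complexes apart (0.30 and 0.23). Itgb4 (2.12 and 0.33), an integrin of hemidesmosomes, and Jup (0.27 and 0.35), the junction protein plakoglobin, belong to epithelial adhesion. Fkbp10 (0.74 and 0.32), a collagen chaperone, and Timp2 (0.96 and 0.25), an inhibitor of metalloproteinases, act in or on the extracellular matrix.

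**Figure D3:**
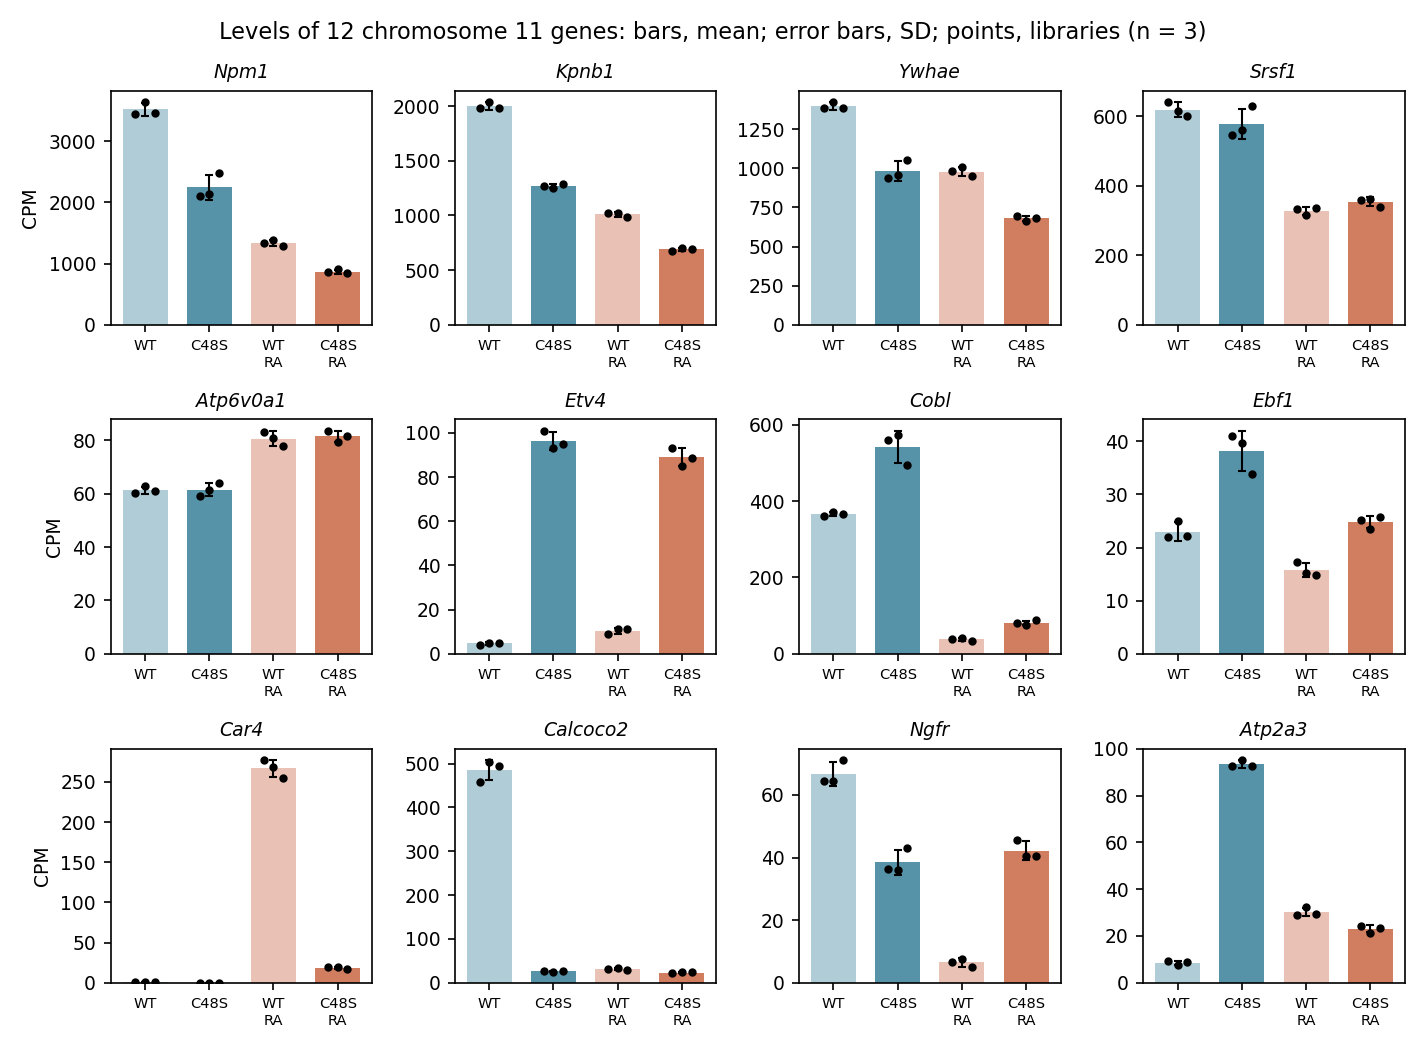
CPM (vertical axis, from 0) of 12 members in the 4 groups (horizontal axis), with bars at the mean of 3 libraries, error bars of 1 SD and a point for each library. Npm1, Kpnb1 and Ywhae keep a similar C48S to WT step in both states, Srsf1 and Atp6v0a1 show little or none, Calcoco2 and Atp2a3 differ between the lines mainly before RA, and Ngfr changes direction.

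The largest departures before RA went both ways. Upward, after Etv4, came Ccnjl, Atp2a3, Itgb4, Grb7, Cavin1, Jade2 and Tmem88. Ccnjl (chr11:43419611-43477824), a cyclin-like gene, was at 3.67, 3.86 and 3.8 CPM in WT and 53.6, 47.1 and 46.0 CPM in C48S (3.69 ± 0.11). Atp2a3 (chr11:72851995-72883870), a calcium pump of the endoplasmic reticulum, was at 9.23, 7.56 and 8.79 CPM in WT and 92.5, 95.4 and 92.4 CPM in C48S (3.46 ± 0.092). The other log2 ratios were 2.12 for Itgb4, 1.90 for the receptor adaptor Grb7, 1.64 for the caveola coat gene Cavin1, 1.54 for Jade2 of a histone acetyltransferase complex and 1.46 for Tmem88, an inhibitor of Wnt signalling. C48S and WT libraries of these genes did not overlap, which was part of the rule that named them. Jade2 met the level rule only through C48S before RA, so its ratio is a description. Tmem88 had means under 20 CPM in both lines before RA, so its ratio there rests on low levels.

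Downward before RA came Calcoco2, Car4, Rnf213, Rtn4rl1, Castor1, Gprc5c, Acsf2 and Elobl. Calcoco2 (chr11:95990152-96002790), a receptor for selective autophagy, was at 459, 503 and 494 CPM in WT and 26.0, 24.3 and 27.7 CPM in C48S before RA, a log2 ratio of -4.22 ± 0.065 (adjusted p = 4.89e-33, edgeR). Rnf213, a giant ubiquitin ligase with an ATPase core, was at 964, 931 and 1002 CPM in WT and 88.8, 84.9 and 80.9 CPM in C48S (-3.51 ± 0.061). Both were abundant in WT and rare in C48S, far below the ratio of their chromosome. Castor1, the arginine sensor of the mTORC1 pathway, was at 183, 177 and 175 CPM in WT and 17.1, 18.2 and 22.4 CPM in C48S (-3.22 ± 0.080), and Acsf2, a fatty acid activating enzyme, at 209.5, 211 and 205 CPM in WT and 30.5, 34.4 and 30.7 CPM in C48S (-2.71 ± 0.063). Ratios were -3.34 for Rtn4rl1, of the Nogo receptor family, -2.89 for the orphan receptor gene Gprc5c and -2.32 for Elobl. Rtn4rl1 and Gprc5c had means under 20 CPM in both lines before RA, so their ratios there rest on low levels. Castor1 and Elobl met the level rule only through their WT libraries, so their ratios are a description. Car4 was at 0.839, 1.01 and 1.41 CPM in WT and 0.0849, 0 and 0.103 CPM in C48S before RA, too low in C48S for a ratio.

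After RA the largest upward departures were those of Etv4, Ngfr, Cobl, Pigl, Notum, Ebf1, Upp1 and Plcd3. Ngfr (chr11:95459644-95478561), a neurotrophin receptor of the tumour necrosis factor receptor family, was at 6.74, 7.72 and 5.08 CPM in WT and 45.6, 40.5 and 40.4 CPM in C48S after RA (2.69 ± 0.11, adjusted p = 3.35e-20, edgeR). Upp1, which splits uridine, was at 171, 157 and 157 CPM in WT and 256, 257 and 253 CPM in C48S (0.66 ± 0.051). Log2 ratios were 0.81 for Pigl, an enzyme of GPI anchor synthesis, 0.78 for Notum, which removes the lipid of Wnt proteins, and 0.63 for the phospholipase gene Plcd3. Notum had means under 20 CPM in both lines after RA.

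Downward after RA came Car4, Krt19, Ntn1, Flt4, Fzd2, Igfbp3, Mmd and P4ha2. Of these 8, 7 rose with RA in WT. Car4 (chr11:84848612-84856870), a membrane-anchored carbonic anhydrase, rose in WT to 277, 268 and 255 CPM and in C48S to 19.3, 19.5 and 17.3 CPM (-3.84 ± 0.070), and it met the level rule only through WT after RA, as did Flt4, Igfbp3 and Mmd. Krt19, a keratin of simple epithelia, reached 298, 283 and 284 CPM in WT and 48.1, 49.3 and 48.9 CPM in C48S (-2.56 ± 0.069). Flt4, a receptor for vascular growth factors, reached 96.0, 86.4 and 85.2 CPM in WT and 19.1, 16.2 and 17.8 CPM in C48S (-2.33 ± 0.089), and the Wnt receptor gene Fzd2 99, 99.6 and 102 CPM in WT and 23.8, 27.7 and 25 CPM in C48S (-1.97 ± 0.077). Ratios were -1.78 for the growth factor binding protein gene Igfbp3, -1.78 for Mmd and -1.69 for the collagen hydroxylase gene P4ha2. Ntn1, the axon guidance factor netrin, was the exception in that it fell with RA, to 29.4, 27.4 and 28.7 CPM in WT and 4.99, 6.08 and 5.78 CPM in C48S (-2.35 ± 0.10).

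Whether a gene kept its ratio through differentiation was tested as the interaction, the log2 ratio after RA minus that before it. It was called for 229 members upward (32.6%) and 168 downward (23.9%), against 22.2% and 17.2% of all genes tested and 32.1% and 20.5% of the genes elsewhere under the same level rule. Without replicate 3 of the undifferentiated C48S cells it was called for 267 upward and 184 downward. The median interaction of members was 0.064, and the median ratio of the other chromosomes was -0.012 before and 0.061 after RA. For 515 of the 702 members it was under 0.5 in size, and for 63 it was 1 or more, 34 upward and 29 downward. Across members the log2 ratios of the 2 states, which share no library, had a Pearson correlation of 0.38 and a Spearman correlation of 0.32, a description over genes.

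Band membership followed the same pattern. Of the 365 members with the constant ratio before RA, 221 (60.5%) had it after RA, 69 were deeper, 66 near equal and 9 higher. Of the 132 near-equal members 76 (57.6%) took the constant ratio after RA and 38 (28.8%) stayed near equal. Of the 42 higher members 17 took the constant ratio, 14 were near equal, 3 deeper and 8 higher after RA. Of the 163 deeper members 75 (46.0%) took the constant ratio and 58 (35.6%) stayed deeper. Genes elsewhere, banded around their own median, also changed bands. After RA 61.8% of their constant, 28.8% of their near-equal, 25.6% of their higher and 42% of their deeper genes kept the band.

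**Figure D4:**
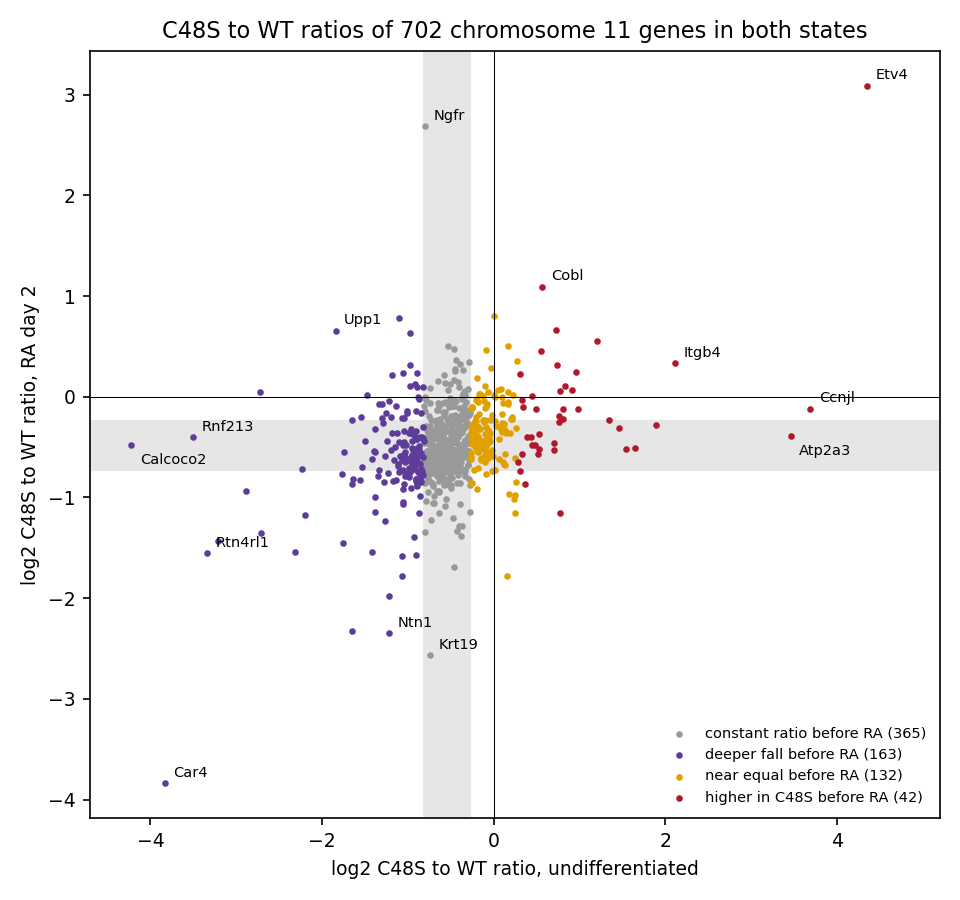
Log2 C48S to WT ratio of each of 702 members before RA (horizontal axis) and at RA day 2 (vertical axis), coloured by its band before RA, with the constant-ratio bands of both states shaded grey. The bands cross over 221 genes, Etv4 is alone at the upper right, and Calcoco2, Rnf213 and Atp2a3 lie inside the horizontal band but far to its sides. The horizontal position of Car4 rests on levels near 0 in C48S.

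Calcoco2 had the largest upward interaction. It stood at 32.3, 33.8 and 29.2 CPM in WT and 21.4, 23.6 and 23.5 CPM in C48S after RA, so that the log2 ratio went from -4.22 to -0.48 (interaction 3.74 ± 0.10, adjusted p = 2.43e-25, edgeR). The RA change in WT was -3.93 on the log2 scale, to a level near that of C48S, which was low in both states. Rnf213 went the same way, to 143, 140.5 and 148 CPM in WT and 108, 97.8 and 121 CPM in C48S after RA (interaction 3.11 ± 0.083). Both therefore reached the constant ratio after RA, and neither departed from the chromosome median there (adjusted p = 0.994 and 0.238, edgeR departure test).

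Ngfr did the reverse. It followed the constant ratio before RA, at 64.5, 64.5 and 71.3 CPM in WT and 36.2, 36.1 and 43.0 CPM in C48S, and was higher in C48S after it. Its log2 ratio before RA, -0.80, was close to the lower limit of the band (-0.82). Without replicate 3 of the undifferentiated C48S cells it was -0.88, beyond that limit and in the deeper range. Its RA change was -3.35 in WT and 0.14 in C48S (interaction 3.48 ± 0.15), and C48S libraries stayed near their level before RA. Upp1 was at 360.0, 338 and 323 CPM in WT and 97.2, 89.7 and 98.2 CPM in C48S before RA and so changed from deeper to higher (interaction 2.5 ± 0.074). Gprc5c (1.95) and Notum (1.88) completed the 6 largest upward interactions.

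Among the downward interactions Atp2a3 was the largest (-3.85 ± 0.13, adjusted p = 5.16e-23, edgeR). It stood at 28.8, 32.2 and 29.5 CPM in WT and 24.3, 21.4 and 23.5 CPM in C48S after RA, and the RA response had opposite signs in the lines, 1.84 in WT and -2.01 in C48S. Ccnjl (-3.81 ± 0.13) rose with RA in WT to 60.7, 57.7 and 59.1 CPM, which C48S had nearly reached before RA, and stood at 54.4, 54.9 and 54.2 CPM in C48S after RA. Grb7 (-2.18) and Cavin1 (-2.15) likewise rose with RA in WT, by 2.54 and 2.23, against RA changes of 0.36 and 0.08 in C48S. Jade2 (-2.06) fell with RA in C48S and rose in WT, and Mmd (-1.94) was near equal before RA. Each met the level rule through 1 group alone, where it is high, so its difference is a description. In all, 31 members (4.42%) were higher in C48S before RA and lower after it by the line test, against 2.55% of all genes tested and 3.66% of the genes elsewhere under the same level rule. The reverse held for 21, against 4.69% and 8.71%.

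RA changed most members in both lines. In WT 398 (56.7%) fell and 212 (30.2%) rose, against 37.4% and 40.9% of all genes tested, and in C48S 399 (56.8%) fell and 197 (28.1%) rose, against 34.6% and 39.0% of all genes tested. Genes elsewhere under the same level rule fell in 56.5% of cases in WT and 54.3% in C48S. The 42 members higher in C48S before RA had a median RA change of 1.46 in WT and 0.18 in C48S, and 69.0% of them changed at least 2-fold in WT. The constant-ratio members of the undifferentiated state had median RA changes of -0.34 in WT and -0.30 in C48S, and 21.9% and 14.2% of them changed at least 2-fold. These RA changes share the undifferentiated libraries with the ratio that sorted the genes.

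Gene groups were described by their counts and medians beside those of all 17940 genes tested, whose median log2 ratio was 0.0014 before RA and 0.023 after it, and beside the shares of all genes called given above. The lists were drawn up from known functions with earlier results of these data known.

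Ribosomal genes were lower in C48S in both states with few exceptions. All 8 genes of the cytosolic ribosomal list were lower in both states, with medians of -0.65 and -0.73. The list was taken by name and includes Rps6kb1, which encodes a kinase and is no ribosomal subunit. Rpl19 was at 1049.6, 1084 and 1053 CPM in WT and 631, 613 and 731 CPM in C48S before RA (-0.69) and at 739, 759 and 720.1 CPM in WT and 447, 449.7 and 445 CPM in C48S after it (-0.73). Rpl26 (-0.77 and -0.77), Rpl23a (-0.58 and -0.88) and Rpl23 (-0.56 and -0.73) were alike, and no member of the list was near equal or higher in either state. Of 10 mitochondrial ribosomal genes 9 were lower before RA and 10 after it (medians -0.63 and -0.59), with Mrpl45 at -0.57 and -0.49, Mrpl10 at -0.61 and -0.61, and Mrps23 at -0.07 and -0.46. Without replicate 3 of the undifferentiated C48S cells all 10 were lower before RA and Mrps23 was at -0.25 (adjusted p = 0.00865, edgeR). Of 4 respiratory chain and ATP synthase genes 3 and 4 were lower (medians -0.72 and -0.56). Without that replicate all 4 were lower before RA, and the cytosolic ribosomal median before RA was -0.75.

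All 8 proteasome genes were lower before RA (median -0.96), 6 of them in the deeper band, and 7 were lower after RA (median -0.52), 2 in the deeper band and 1 near equal. Psme4, a proteasome activator, was at 797, 815 and 779 CPM in WT and 338, 335 and 314 CPM in C48S before RA (-1.27) and at 563, 567 and 533 CPM in WT and 313, 311 and 302 CPM in C48S after it (-0.84). The regulatory particle genes Psmd11 (-0.93 and -0.38) and Psmd3 (-0.97 and -0.64) and the activator gene Psme3 (-0.59 and -0.34) followed. The interaction was called upward for 6 of 8 and downward for none, and without replicate 3 of the undifferentiated C48S cells for all 8.

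Chromatin regulators came closer to WT after RA. Of 19 genes 18 were lower and 1 higher before RA (median -0.62), and 11 lower and 2 higher after it (median -0.19). The interaction was called upward for 14 and downward for none, and 10 of 19 were near equal after RA against 2 before it. Suz12, a core subunit of the Polycomb complex that methylates histone H3, was at 1053, 1051 and 1062 CPM in WT and 403, 438 and 449 CPM in C48S before RA and at 252, 269 and 231 CPM in WT and 213, 214 and 200.5 CPM in C48S after it (-1.29 and -0.26). Ncor1, a nuclear receptor corepressor, was at 819.5, 866 and 887 CPM in WT and 683, 649 and 532 CPM in C48S before RA and at 338, 336 and 333 CPM in WT and 471, 461 and 468 CPM in C48S after it, so its ratio went from -0.46 to 0.48. Bptf, of a nucleosome remodeller, moved from -0.88 to -0.01, whereas the histone variant gene H3f3b stayed near equal (-0.20 and -0.24). The lower limits of that band were -0.27 and -0.24, so H3f3b lay at its edge after RA. Without replicate 3 of the undifferentiated C48S cells its ratio before RA was -0.28, just outside the band.

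**Figure D5:**
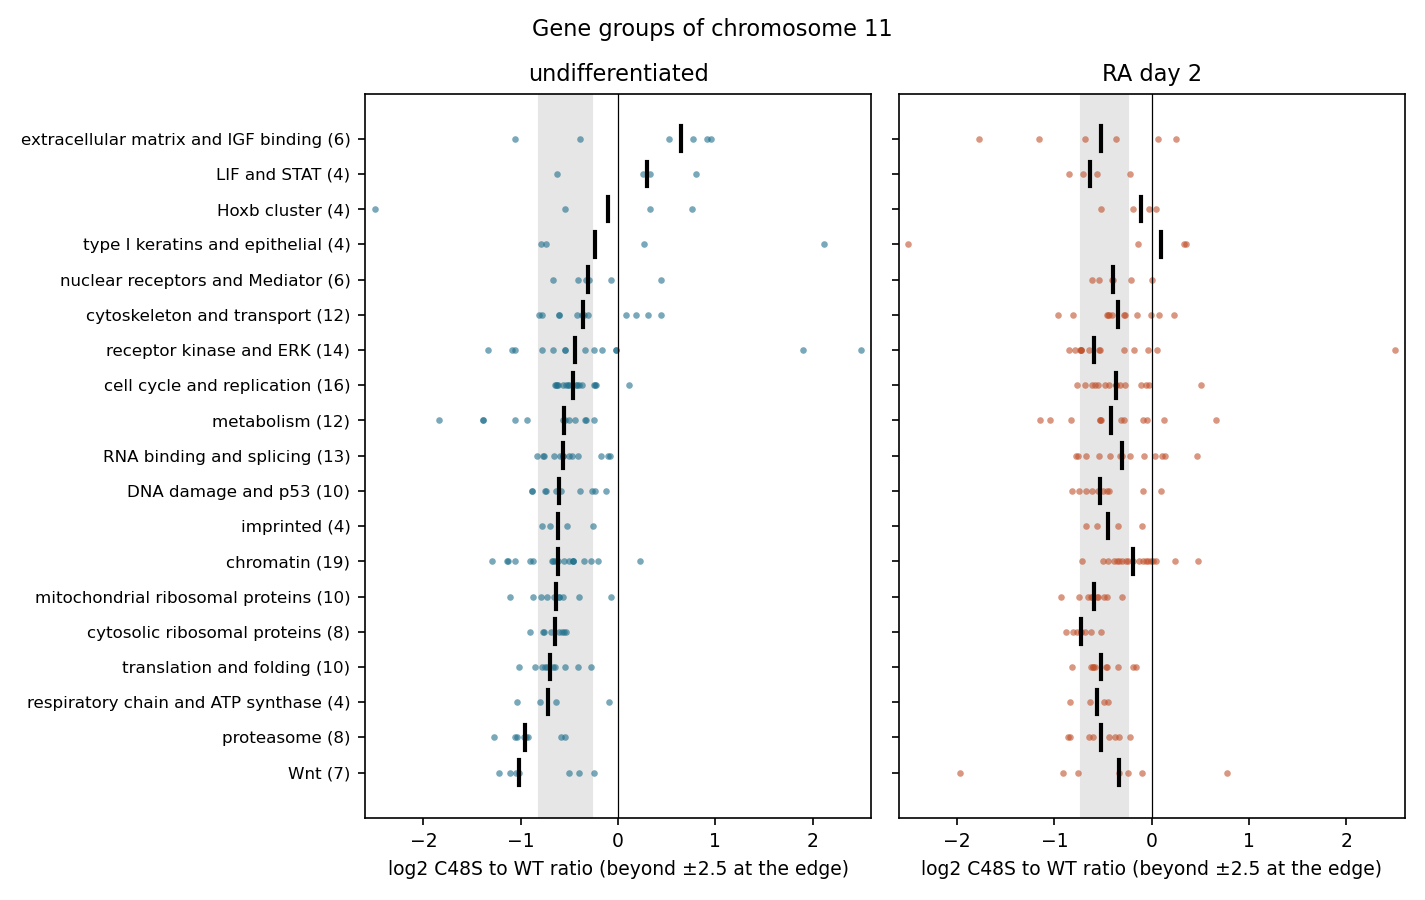
Log2 C48S to WT ratio (horizontal axis) of each member of 19 gene groups (vertical axis, number of genes in parentheses), undifferentiated on the left and RA day 2 on the right, with black bars at group medians and the constant-ratio band shaded. Ribosomal groups stay within the band in their medians before RA, chromatin genes move toward 0 after RA, and the extracellular matrix and LIF groups cross from above 0 into the band.

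RNA binding and splicing genes were divided. Of 13 genes 11 were lower and 0 higher before RA (median -0.56), and 8 lower and 2 higher after it (median -0.30), with the interaction upward for 8. Without replicate 3 of the undifferentiated C48S cells 12 were lower before RA, and the interaction was upward for 10 and downward for 1. Prpf8, the core splicing factor, stayed low (-0.83 and -0.78), as did the helicase gene Ddx5 (-0.41 and -0.33). The RNA-binding Igf2bp1 (-0.66 and -0.23) and the nuclear exporter Xpo1 (-0.57 and 0.14) moved to the near-equal band. All 10 translation and folding genes were lower in both states (medians -0.70 and -0.53), among them Eif4a1 (-0.75 and -0.19), Hspa4 (-1.02 and -0.60) and Canx (-0.78 and -0.58).

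Of 16 cell cycle genes 15 were lower before RA and 13 after it, with 0 and 1 higher (medians -0.47 and -0.37), and 12 and 11 followed the constant ratio. Before RA 7 of the 16 departed upward from the chromosome median and none downward, while after RA 6 departed upward and 3 downward. Topoisomerase Top2a stood at -0.40 and -0.11, the importin Kpna2 at -0.43 and -0.61, and the replication protein gene Rpa1 at -0.51 and -0.76. Of 10 DNA damage and p53 genes 10 and 8 were lower and none higher (medians -0.61 and -0.53). The interaction was called upward for 2 of the 10 and downward for 2, so the upward change of Trp53 below does not stand for the list. Trp53, the tumour suppressor, was at 868, 906 and 865 CPM in WT and 529, 517 and 536 CPM in C48S before RA and at 267, 269 and 276 CPM in WT and 291, 288 and 285 CPM in C48S after it. Its ratio went from -0.74 ± 0.043 to 0.09 ± 0.044 (interaction 0.83 ± 0.062, adjusted p = 2.19e-13, edgeR), and after RA each C48S library lay above each WT library by a margin that did not pass the test (adjusted p = 0.0804).

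Of 12 metabolic genes 12 were lower before RA and 8 lower and 2 higher after it (medians -0.55 and -0.42). Acly, which makes cytosolic acetyl-CoA, was at 1089, 1077 and 1059 CPM in WT and 415, 416 and 401 CPM in C48S (-1.39) and after RA at 319, 301 and 307 CPM in WT and 249, 254 and 241 CPM in C48S (-0.32), and the fatty acid synthase gene Fasn stood at -0.94 and -0.52. The carboxylase gene Acaca of the same pathway stood at -0.54 and -0.83. Pfas, of purine synthesis, stood at -0.25 and -0.29. Of 12 cytoskeleton and transport genes 8 were lower and 2 higher before RA, and 9 lower and 1 higher after it (medians -0.36 and -0.34), with cytoplasmic actin, Actg1, at -0.60 and -0.81 and the clathrin chain gene Cltc at -0.42 and -0.28.

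LIF and STAT genes stood above WT before RA and below it after. Of 4 genes 3 were higher and 1 lower before RA (median 0.29), and all 4 were lower after it (median -0.64), with the interaction downward for 3. Stat3, the transcription factor that LIF activates, was at 150.1, 147 and 146 CPM in WT and 192, 183 and 181 CPM in C48S before RA and at 169, 179 and 171 CPM in WT and 116, 117 and 118 CPM in C48S after it (0.33 and -0.57). Socs3, a feedback inhibitor and target of Stat3, was at 81.5, 76.9 and 73.3 CPM in WT and 134, 128 and 143 CPM in C48S before RA and at 29.7, 26.4 and 29.1 CPM in WT and 26.0, 22.2 and 24.4 CPM in C48S after it (0.80 and -0.23). Stat5b stood at 0.26 and -0.85 and Socs7 at -0.63 and -0.71. Undifferentiated C48S libraries did not overlap those of WT for Stat3 or Socs3.

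Receptor kinase and ERK genes were spread widely. Of 14 genes 9 were lower and 2 higher before RA (median -0.44), and 11 lower and 1 higher after it (median -0.59). Besides Etv4 and Grb7, described above, the group held the negative regulator Spred2 (-0.34 and 0.06), the adaptor Crk (-0.17 and -0.54), the Ras inhibitor Nf1 (-0.02 and -0.53) and the kinase gene Map2k4 (-0.55 and -0.73). Of 7 Wnt genes 7 were lower before RA, and 5 lower and 1, Notum, higher after it (medians -1.02 and -0.34). Csnk1d, a kinase, stood at -0.40 and -0.24, Dvl2, which relays the Frizzled signal, at -0.25 and -0.10, the transcription factor Tcf7 at -1.02 and -0.76, and the feedback gene Axin2 at -1.05 and -0.34.

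Extracellular matrix and IGF binding genes had the highest median of the 19 groups before RA. Of 6 genes 4 were higher and 2 lower before RA (median 0.65), and 1 was higher and 4 lower after it (median -0.53), and the interaction was downward for all 6. Col1a1, a fibrillar collagen chain, was at 141, 137 and 152 CPM in WT and 240.1, 234 and 334 CPM in C48S before RA and at 72.7, 71.2 and 80.8 CPM in WT and 78.4, 81.7 and 74.6 CPM in C48S after it. Its ratio before RA was 0.91, and without replicate 3 of the undifferentiated C48S cells 0.74. Sparc stood at -0.39 and -0.68, Timp2 at 0.96 and 0.25, and the collagen receptor gene Mrc2 at 0.52 and -0.37. The summed fibroblast markers, of which Col1a1 is one, were also higher in C48S before RA (500 to 656 CPM against 354 to 388 CPM) and after it (438 to 443 CPM against 286 to 290 CPM), where the ratio of Col1a1 was 0.06. The markers went both ways: Dcn (-0.67) and Thy1 (-0.54) were lower in C48S before RA, and Dcn (-0.58) and Thy1 (-0.90) after it, while Pdgfrb was higher in both states (1.21 and 1.39) and after RA was at 80.3 to 88.2 CPM in WT and 220.3 to 228 CPM in C48S. None of the 10 was at 0 throughout, and Postn, one of them, was under 2 CPM in each library. The part of such cells in these differences was not tested.

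The Hoxb genes, which RA is known to induce, rose in both lines. All 4 members passed the RA test upward in WT and in C48S, and 1 of them, Hoxb9, was lower in C48S in each state. Before RA the other 3 were near 0, so no ratio is given for them there. Hoxb1, an early target of RA, was at 0, 0.168 and 0 CPM in WT and 0, 0 and 0 CPM in C48S before RA and at 129.9, 119 and 136 CPM in WT and 132, 138 and 127 CPM in C48S after RA (0.05 ± 0.065, adjusted p = 0.547, edgeR), with overlapping lines, and Hoxb3 (-0.03) and Hoxb2 (-0.19) were near equal as well. Hoxb9 followed the constant ratio in both states (-0.55 and -0.52). Rara, the RA receptor, was at 64.5, 59.1 and 62.8 CPM in WT and 84.1, 85.2 and 83.9 CPM in C48S before RA (0.44) and at 135, 129 and 122 CPM in WT and 127, 123 and 137 CPM in C48S after it (0.00). The Mediator genes Med13 (-0.67 and -0.54), Med1 (-0.30 and -0.39) and Med24 (-0.33 and -0.21) were lower in both states. Over these 6 nuclear receptor and Mediator genes 4 were lower and 1 higher before RA, and 5 lower after it (medians -0.31 and -0.40).

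Of 4 keratin and epithelial genes 2 were lower and 2 higher in each state (medians -0.23 and 0.098). Itga3, an integrin of epithelia that RA raised, stood at -0.80 and -0.14, beside Krt19, Itgb4 and Jup above. Of 4 genes at imprinted loci 3 were lower in each state (medians -0.61 and -0.45): Grb10 at -0.52 and -0.10, Ddc at -0.79 and -0.68, Zrsr1 at -0.70 and -0.34, and Commd1 at -0.26 and -0.56. Without replicate 3 of the undifferentiated C48S cells all 4 were lower before RA, with Commd1 at -0.45 (adjusted p = 5.37e-05, edgeR). Zrsr1 lies within Commd1 on the other strand, so their reads may not be fully separated.

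The promoters of the members are described by band. RefSeq promoters of 300 bases, 250 before and 50 after the start (GRCm38.p6), matched 581 of 702 members (82.8%). The median GC content was 62.0% and the median observed to expected CpG ratio 0.83, against 52.7% and 0.38 over all 32851 promoters of the table. Members were chosen by level and give 1 promoter each, the most upstream, whereas the table was not filtered by level. Genes elsewhere under the level rule were not compared, so differences from the table cannot be read as traits of chromosome 11. The GC content differed little between bands before RA, at 61.7% for deeper and constant, 63.0% for near-equal and 67.0% for the 25 higher genes with a promoter. Shown here is 1 promoter for the constant ratio (Kpnb1, chr11:97187843-97188142, minus strand), 1 for near equality (Srsf1, chr11:88047123-88047422, plus strand), 1 for higher in both states (Ebf1, chr11:44617850-44618149, plus strand) and 1 for the deepest departure after RA (Car4, chr11:84957504-84957803, plus strand), 5′ to 3′, with matches to 6 short motifs in capitals.
Kpnb1: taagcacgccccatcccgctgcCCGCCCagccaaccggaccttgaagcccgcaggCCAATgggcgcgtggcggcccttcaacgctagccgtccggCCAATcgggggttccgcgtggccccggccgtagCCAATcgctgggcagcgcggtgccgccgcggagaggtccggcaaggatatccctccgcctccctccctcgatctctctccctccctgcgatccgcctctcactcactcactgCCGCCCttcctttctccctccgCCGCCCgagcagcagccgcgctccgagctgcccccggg
Srsf1: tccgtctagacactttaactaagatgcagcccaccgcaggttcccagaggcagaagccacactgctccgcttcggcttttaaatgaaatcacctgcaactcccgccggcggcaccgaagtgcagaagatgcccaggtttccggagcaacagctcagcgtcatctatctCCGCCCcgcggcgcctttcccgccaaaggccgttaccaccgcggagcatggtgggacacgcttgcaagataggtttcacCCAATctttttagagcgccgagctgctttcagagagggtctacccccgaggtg
Ebf1: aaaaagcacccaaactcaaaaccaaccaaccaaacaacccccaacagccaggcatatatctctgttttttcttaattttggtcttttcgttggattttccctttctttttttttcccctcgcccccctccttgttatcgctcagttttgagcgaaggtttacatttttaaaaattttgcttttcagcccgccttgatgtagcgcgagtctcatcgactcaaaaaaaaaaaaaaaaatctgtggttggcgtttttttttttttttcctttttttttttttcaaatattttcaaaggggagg
Car4: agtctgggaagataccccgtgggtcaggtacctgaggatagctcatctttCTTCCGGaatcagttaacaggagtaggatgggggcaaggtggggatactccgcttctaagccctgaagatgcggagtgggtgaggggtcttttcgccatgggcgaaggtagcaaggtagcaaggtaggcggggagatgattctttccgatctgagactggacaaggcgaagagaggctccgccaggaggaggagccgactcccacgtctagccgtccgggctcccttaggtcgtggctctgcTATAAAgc

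The motifs were the GC box (GGGCGG), the CCAAT box (CCAAT), the TATA box (TATAAA), the E-box (CACGTG), the ETS core (CCGGAAG) and the octamer (ATGCAAAT), searched on both strands, with overlaps between motifs allowed. Kpnb1 held 3 GC boxes and 3 CCAAT boxes, Srsf1 1 of each, Car4 a TATA box and an ETS core, and Ebf1 none of the 6. A GC box was found in 70.1% of the members' promoters, against 35.7% of all promoters, a CCAAT box in 41.5% against 37.4%, and a TATA box in 6.37% against 13.6%. The ETS core was found in 21.2% against 8.86%, the E-box in 13.3% against 7.15%, and the octamer, which the POU domain of Oct4 is known to bind, in 4 members (0.688%) against 1.74%. These contrasts with all promoters carry the limit given above. By band before RA the ETS core was held by 13.1% of deeper, 22.8% of constant, 29.0% of near-equal and 12% of higher genes, and after RA by 24.3, 23.1, 15.7 and 4.76%, so no order of the bands held in both states. A match is a string in this window and was not tested as a binding site.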

How the data were processed

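The authors deposited 12 tables of whole-number read counts per gene, which per the file headers were made with featureCounts 1.6.3 on an Ensembl GRCm39 release 104 annotation. The submitters' processing notes name STAR 2.7.9a, mm39 and DESeq2, with no role given. Filters and strand settings are not given in the sources used here. No deposited value was normalized. Counts of the 12 libraries, grouped by their titles, were fitted together with edgeR 4.0.16 in R 4.3.3 (group means, TMM scaling, filterByExpr with a minimum count of 10, quasi-likelihood F-test, 8 residual degrees of freedom, Benjamini-Hochberg over 17940 genes). CPM values are TMM-scaled. Gene names came from GENCODE M21, which names 94.1% of the chromosome 11 genes.

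The departure test shifts the offsets of the C48S libraries by the median log2 ratio of the gene's chromosome, over protein-coding genes of at least 20 CPM, or by 0 for chromosomes with fewer than 50 such genes. The members, lists and tests were chosen with earlier results of these data known. Named genes were the 8 largest departures each way per state, members higher in both states, the 8 most abundant members with intervals in the constant or near-equal band in both states, the 6 largest interactions each way, the 4 most abundant genes of each list, all genes of lists of up to 5 members, and 3 genes on each side of the CPM threshold. Not every list gene chosen by this rule is described singly, and none of the respiratory chain and ATP synthase genes is. Mrps23, Rps6kb1, Acaca and Postn and the other markers were named after their values were seen.

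The departure test was tried on counts drawn with known changes (11860 genes). Before RA it recovered 70% of 1.25-fold, 96.0% of 1.5-fold and 100% of 2-fold departures, and 8.96% of the calls were false. After RA it recovered 68%, 92.0% and 100%, with 4.26% false. These rates describe the drawn counts alone. Few of the drawn genes were changed, whereas 52.2% of all genes tested departed in the data before RA and 49.8% after it. The share of false calls in the data was therefore not measured. Nor was the test tried with an undifferentiated mutant library that stands apart from its group. The chromosome 11 median itself came back as -0.54 for -0.54 before RA and -0.55 for -0.48 after it. The median relative to other chromosomes came back as -0.54 for -0.53 before RA and -0.54 for -0.55 after it. Depth per library, 8678088 to 13597098 counts, sets the precision.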

Additional observations from a re-analysis of the deposited data

Results flagged for a closer look

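The C48S to WT ratio differed between the states, by the edgeR interaction test, for 229 members upward after RA and 168 downward, with adjusted p under 0.05 over all genes tested. The 6 largest upward differences in log2 ratio were those of Calcoco2 (3.74), Ngfr (3.48), Rnf213 (3.11), Upp1 (2.5), Gprc5c (1.95) and Notum (1.88). Libraries of the lines did not overlap in either state for Calcoco2, Rnf213, Ngfr, Upp1, Gprc5c or Notum. The 6 largest downward differences were those of Atp2a3 (-3.85), Ccnjl (-3.81), Grb7 (-2.18), Cavin1 (-2.15), Jade2 (-2.06) and Mmd (-1.94). Of these 6, Mmd was near equal in the lines before RA (5.24, 6.38 and 4.45 CPM in WT and 5.77, 5.86 and 6.62 CPM in C48S) and Ccnjl after RA (60.7, 57.7 and 59.1 CPM in WT and 54.4, 54.9 and 54.2 CPM in C48S). All 12 kept their call and direction under each alternative setting that could be applied to them. They were named as the largest calls of this test, so that was likely. Jade2 met the level rule only through C48S before RA and Mmd only through WT after RA. The differences of these genes are therefore a description.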

How the results depend on the processing

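Of the 295 values recomputed for the counts and medians, 266 stayed close to the value given and 29 moved. A count has no direction, so only the medians could have changed theirs, and none did. Close was a loose limit for counts. With the narrower bands described below, 62 members higher in C48S before RA still counted as close to 42. All 1887 values for 111 results on single genes kept their direction and their side of the threshold. These genes were named for clear values in the same data, so this was likely. With RLE scaling the medians were -0.56 before RA and -0.53 after it, and the median of all genes moved by -0.021 and -0.045. A minimum of 1 CPM (1167 members) gave 222 and 225 near-equal members, 138 and 103 higher ones and 717 and 645 departures, before and after RA. A minimum of 100 CPM (281 members) gave medians of -0.58 and -0.45, 167 and 156 constant, 47 and 57 near-equal and 7 and 11 higher members, 198 and 193 departures, and 96 constant in both states. These counts changed with the number of members. Bands of 0.5 times the former width left 197 and 210 constant members, 61 in both states, and 59 and 76 near-equal ones. Leaving out 1 library at a time, the median ranged from -0.51 to -0.48 after RA and from -0.56 to -0.53 before it, departures from 433 to 496 before and from 366 to 484 after RA, and interactions from 362 to 451. A member rule on CPM of the library total, chosen after seeing the data, took 712 genes with medians of -0.55 and -0.48. Replicate numbers did not pair the samples: correlations of same-numbered libraries ran from -0.12 to 0.20, over 0.1 in 2 of 12 pairs. With the replicate number as a block 460 and 407 members departed and 393 had an interaction. Depth limits the ratios of members that are near 0 in 1 state, such as Car4, Hoxb1, Hoxb2 and Hoxb3 before RA.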
